A study of Homo sapiens with 32 samples.

Results

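The acetyltransferase mutant G641E of NAT10 was compared with NAT10-depleted cells, called NAT10(-), in ac4C mapping data from Hep3B, a human liver cancer cell line. The comparison used the 8 libraries whose titles carry either name, out of 32 libraries of 8 genotypes in the series. They were 2 replicates of G641E treated with NaCNBH3, 2 of NAT10(-) treated with NaCNBH3, 2 of G641E mock and 2 of NAT10(-) mock. All 8 came from NAT10-FKBP12-F36V Hep3B cells, in which the endogenous NAT10 carries a degron tag and is degraded by the compound dTAGV-1. G641E cells received a lentivirus encoding NAT10 with its GNAT-domain glycine changed to glutamate, and NAT10(-) cells a lentivirus encoding YFP. Both were selected with blasticidin and treated with 100 nM dTAGV-1 for 24 h, so the controls also carried the tag, the virus and the compound. Replicates were independent transductions of this line, and the mutant was expressed from the virus rather than from its own locus. Each RNA was split into a NaCNBH3 and a mock fraction, so the 8 libraries came from 4 RNA samples.

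NAT10 acetylates cytidine to N4-acetylcytidine (ac4C) in the small-subunit rRNA and, together with the adaptor THUMPD1, in leucine and serine tRNAs. The acetyl group is transferred by its GNAT domain, which G641E changes, and a separate helicase domain acts on RNA. In ac4C sequencing, NaCNBH3 reduces ac4C to a form that reverse transcriptase copies as T, so the C>T share of reads in the reduced fraction rises at ac4C, and the mock fraction gives the background. Other modified bases leave mismatches that do not depend on NAT10: 1-methyladenosine at base 58 of tRNA, dimethylguanosine at base 26, methylguanosine at base 9, inosine at base 34 and 3-methylcytidine at base 32.

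The 4 NAT10 sites share a CCG, shown in capitals with 15 bases on each side of the middle cytosine (GRCh38; both 18S windows lie in an rDNA copy on chromosome 21). The first is C1337 of 18S rRNA, at chr21:8210952-8210982 on the plus strand, and the second C1842, at chr21:8211457-8211487 on the plus strand.
18S C1337: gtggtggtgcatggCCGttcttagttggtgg
18S C1842: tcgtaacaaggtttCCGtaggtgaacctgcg
In tRNA-Leu and tRNA-Ser the CCG takes bases 11 to 13 and ac4C is at base 12. The first 30 bases of the genes on which the tRNA results turn are given 5′ to 3′, with the CCG in capitals: TRL-CAG1-1 at chr1:161441533-161441562 (plus strand), TRL-TAG3-1 at chr16:22195763-22195792 (minus), TRL-TAG2-1 at chr14:20625370-20625399 (plus), TRL-AAG2-4 at chr16:22297140-22297169 (plus), TRS-GCT3-1 at chr11:66348120-66348149 (plus), TRS-CGA3-1 at chr6:27672502-27672531 (minus), TRS-CGA4-1 at chr12:56190364-56190393 (plus), TRS-AGA4-1 at chr6:27553465-27553494 (minus) and TRS-AGA2-1 at chr6:26327589-26327618 (plus).
TRL-CAG1-1: gtcaggatggCCGagcggtctaaggcgctg
TRL-TAG3-1: ggtagcgtggCCGagtggtctaaggcgctg
TRL-TAG2-1: ggtagtgtggCCGagcggtctaaggcgctg
TRL-AAG2-4: ggtagcgtggCCGagcggtctaaggcgctg
TRS-GCT3-1: gacgaggtggCCGagtggttaaggcgatgg
TRS-CGA3-1: gctgtgatggCCGagtggttaaggtgttgg
TRS-CGA4-1: gtcacggtggCCGagtggttaaggcgttgg
TRS-AGA4-1: gtagtcgtggCCGagtggttaaggtgatgg
TRS-AGA2-1: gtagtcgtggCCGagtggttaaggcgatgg
The mitochondrial tRNA-Met window at MT:4417-4447 served as the NAT10-independent site, because its anticodon cytosine C34 carries 5-formylcytidine, which NaCNBH3 also reduces. The anticodon is in capitals and C34 is its first base.
MT-tRNA-Met C34: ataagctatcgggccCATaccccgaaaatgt

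The libraries held 1322433274 and 1294546334 base calls in G641E NaCNBH3, 1436607320 and 1657467620 in NAT10(-) NaCNBH3, 1424476769 and 1287518574 in G641E mock, and 1526276455 and 1548494859 in NAT10(-) mock, over positions with 30 or more reads. Depth did not exceed 20046 reads per position in these libraries, and 90.4% of 18S and 84.7% of 28S positions reached 15000 reads in at least 1 of them, so rRNA levels were capped. The libraries of NAT10(-) replicate 2 stood apart, with 1036338 mock and 1226866 NaCNBH3 positions listed, against 454836 to 752639 in the other 6. Of 9 hepatocyte markers 7 were listed in every library, whereas AFP had no listed position in NAT10(-) replicate 1 and FGB was listed only in NAT10(-) replicate 2. APOB was uneven too, with 12280 and 12702 listed positions in G641E NaCNBH3 and 286 and 14077 in NAT10(-) NaCNBH3. All fibroblast, endothelial and erythroid markers were at 0, and of the 4 immune markers only LYZ was listed, with 526 and 615 positions in G641E NaCNBH3, against 121 and 285 in NAT10(-) NaCNBH3, and 577 and 536 in G641E mock, against 102 and 139 in NAT10(-) mock.

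NAT10 itself matched the labels. In mock, 3028 and 2765 positions of its mRNA reached 30 reads in G641E, and none did in NAT10(-). In NaCNBH3 the numbers were 3023 and 2982 in G641E and 0 in both NAT10(-) libraries, whose endogenous transcript therefore stayed under 30 reads throughout. At the mutated codon (chr11:34135184-34135186, coding exon, reference GGC), the second base read A in 61 of 62 and 37 of 39 reads in G641E mock, and in 49 of 49 and 42 of 44 reads in G641E NaCNBH3. The third base gave the same counts of A, so the codon read GAA, glutamate. NAT10(-) had no listed read there.

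The first question was whether residual C>T differed between cells that make a catalytically impaired NAT10 and cells with none. At 18S C1337, summed over 8 rDNA copies, the NaCNBH3 C>T share was 6.14% and 7.31% in G641E, against 9.70% and 11.88% in NAT10(-). Both G641E libraries lay below both NAT10(-) libraries, at 6.72% ± 0.823 against 10.8% ± 1.54 (SD, n = 2 each). The mock shares were 0.196% and 0.163% in G641E and 0.253% and 0.181% in NAT10(-). The ratio of the means was 0.623, and 0.633 and 0.615 in the 2 replicate pairs. On the log2 odds scale the difference was −0.75 with a standard error of 0.58 (limma across 16 NaCNBH3 libraries, adjusted p = 0.976), so it was not larger than the spread the model saw. The depth was 136717 and 147868 reads in G641E and 134756 and 151118 in NAT10(-), and a read that maps to several rDNA copies may have entered once per copy.

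C1842 did not separate the genotypes. Its NaCNBH3 C>T share was 4.01% and 7.17% in G641E, against 3.85% and 6.49% in NAT10(-), and in both genotypes replicate 2 was the higher. The mock shares were 0.144% and 0.126% in G641E and 0.0818% and 0.0713% in NAT10(-). The ratio of means was 1.08 and the log2 odds difference 0.11 with a standard error of 0.73 (limma, adjusted p = 0.976). Its direction turned to −0.12 when the shares of the 8 rDNA copies were averaged instead of summing their reads.

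In tRNA the order was the opposite of C1337. The summed tRNA-Leu C12, over the 15 of 30 gene copies with 30 or more reads in every library of the series, had a C>T share of 1.28% and 2.67% in G641E NaCNBH3, against 0.769% and 1.25% in NAT10(-) NaCNBH3. The mock shares were 0.319% and 0.246% in G641E and 0.175% and 0.167% in NAT10(-). G641E was above NAT10(-) in both fractions, with a ratio of means of 1.96 after NaCNBH3 and a log2 odds difference of 0.93 with a standard error of 0.71 (limma, adjusted p = 0.976). Its 2 G641E libraries themselves differed by more than the NAT10(-) libraries did, and the log2 odds difference was 0.39 without G641E replicate 2, 0.58 without NAT10(-) replicate 1 and 1.47 without G641E replicate 1.

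The summed tRNA-Ser C12, over 10 of 24 copies, was the most even of the 4 sites within each genotype. Its C>T share was 1.47% and 1.46% in G641E NaCNBH3, from 4342 and 2049 reads, with 95% Wilson intervals of 1.16% to 1.88% and 1.03% to 2.08%. In NAT10(-) NaCNBH3 it was 0.401% and 0.404%, from 11222 and 10391 reads, with intervals of 0.30% to 0.536% and 0.299% to 0.546%. The intervals cover counting error only, and those of the genotypes did not overlap. In mock the share was 0.0511% in G641E replicate 1 and 0 of 2165 reads in replicate 2, which allows up to 0.139%, against 0.0158% and 0.0124% in NAT10(-). The ratio of NaCNBH3 means was 3.65. The log2 odds difference of 1.88 had a standard error of 0.55 (limma, adjusted p = 0.176 over the 60 sites fitted together), so it did not pass.

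**Figure D1:**
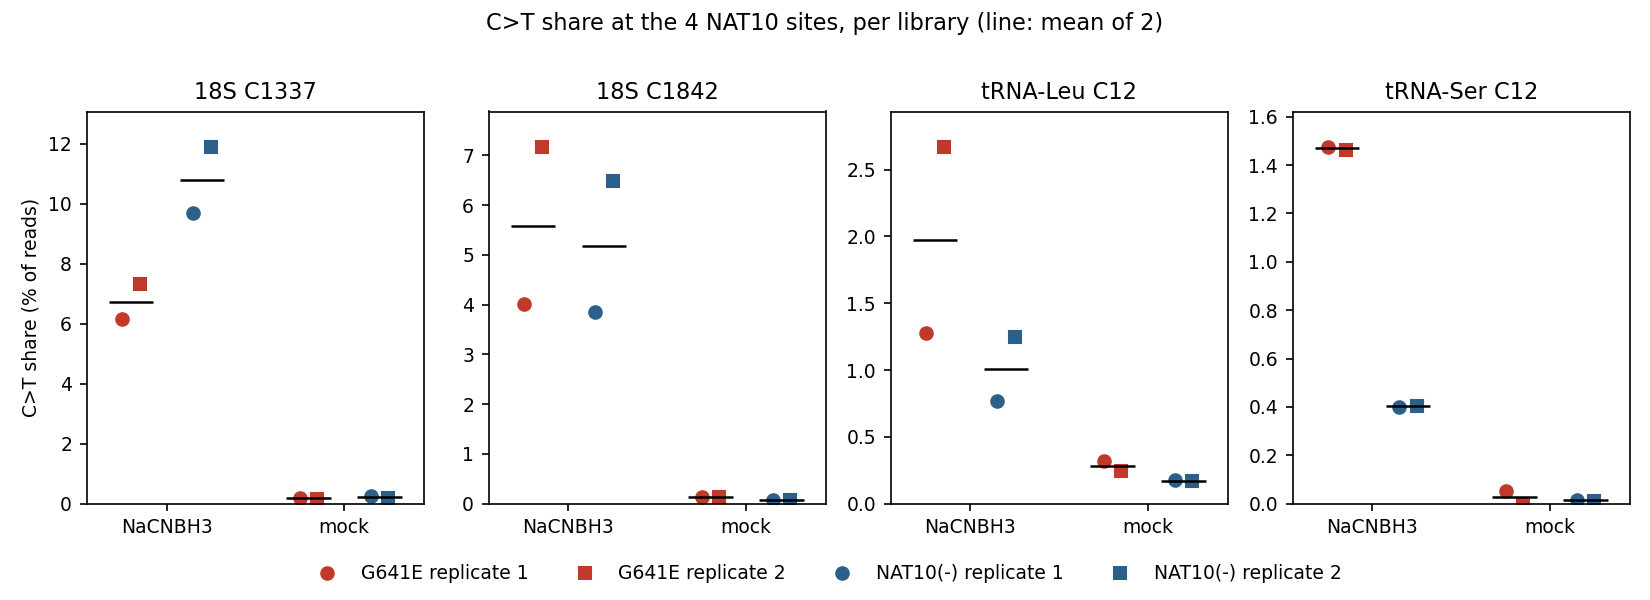
C>T share (percent of reads, linear axes from 0 with their own range) at the 4 NAT10 sites in each NaCNBH3 and mock library; circles are replicate 1, squares replicate 2 and lines the mean of 2. At C1337 both G641E NaCNBH3 points (6.14% and 7.31%) lie below both NAT10(-) points, and at tRNA-Ser C12 both (1.47% and 1.46%) lie above them.

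All 4 sites still responded to NaCNBH3 in both genotypes. By Fisher's exact test in each replicate, the C>T share was higher in NaCNBH3 than in mock at all 4, with log2 odds ratios of 5.06 and 5.59 in G641E and 5.40 and 6.22 in NAT10(-) at C1337. At tRNA-Ser C12 they were 4.66 and 6.03 in G641E and 4.36 and 4.47 in NAT10(-), and at tRNA-Leu C12 2.01 and 3.45 in G641E and 2.14 and 2.91 in NAT10(-). Cells with active NAT10 gave the scale: C1337 reached 69.2% to 90.9% in Wildtype and 61.7% to 72.8% in NAT10-WT, while the FKBP cells, with the tag and no transgene, had 9.53% to 10.9%. For tRNA-Ser C12 the range was narrower, with 1.45% to 3.67% in Wildtype, 2.18% to 3.78% in NAT10-WT and 0.605% to 0.766% in FKBP. The other mutants had 0.563% to 1.59% (K290A), 0.481% to 0.494% (E389L) and 0.792% to 1.24% (H537A), so both G641E values stood inside the K290A range and at the lower end of Wildtype. For tRNA-Leu C12 the ranges were 1.66% to 5.54% in Wildtype, 1.81% to 3.99% in NAT10-WT and 1.36% to 1.84% in FKBP. They were 0.779% to 2.07% in K290A, 0.724% to 1.27% in E389L and 1.16% to 1.39% in H537A. At that site G641E replicate 1 lay below the FKBP range and replicate 2 above it.

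Because every library holds both RNA classes, the tRNA site was set against the 18S site within each library, which removes any factor that acts on all cytosines of a library alike. The tRNA-Ser C12 log2 odds minus that of C1337 was −2.12 and −2.38 in G641E, against −4.72 and −5.04 in NAT10(-). The genotypes did not overlap, with a difference of 2.63 and a standard error of 0.47 (limma, adjusted p = 0.000752 over the 4 differences). For tRNA-Leu C12 minus C1337 the values were −2.33 and −1.52 in G641E, against −3.79 and −3.41 in NAT10(-). This gave a difference of 1.67 with a standard error of 0.48 (limma, adjusted p = 0.0105), which no longer passed on single-copy genes (2.23, adjusted p = 0.065), without G641E replicate 2 (1.27, adjusted p = 0.075) or without NAT10(-) replicate 1 (1.49, adjusted p = 0.076).

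Against C1842 the separation was smaller. tRNA-Ser C12 minus C1842 was −1.47 and −2.35 in G641E, against −3.30 and −4.08 in NAT10(-). The difference of 1.78 had a standard error of 0.79 (limma, adjusted p = 0.063) and passed only with the replicate number as a block (adjusted p = 0.0086) or under the other settings listed in the closing section. tRNA-Leu C12 minus C1842 was −1.68 and −1.49 in G641E, against −2.37 and −2.46 in NAT10(-), a difference of 0.82 with a standard error of 0.62 (limma, adjusted p = 0.216). In all 4 differences both G641E values lay above both NAT10(-) values. An exact two-sided permutation test of 2 against 2 libraries gave p = 0.333 for each, the smallest it allows.

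The mock fractions carried part of the same order. The mock difference was 0.98 with a standard error of 0.47 for tRNA-Leu C12 minus C1337 and 1.21 with a standard error of 0.73 for tRNA-Ser C12 minus C1337 (limma, adjusted p = 0.25 for both), and it was −0.08 and 0.15 against C1842. When the mock value of the same RNA was subtracted, 1.42 with a standard error of 0.86 remained for tRNA-Ser C12 minus C1337 and 0.69 with a standard error of 0.63 for tRNA-Leu C12 minus C1337. Against C1842 the values were 1.63 with a standard error of 0.97 and 0.90 with a standard error of 0.68. No mock-subtracted difference passed (limma, adjusted p = 0.251 to 0.294), and mock shares of 0 to 3 reads set the tRNA-Ser values.

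**Figure D2:**
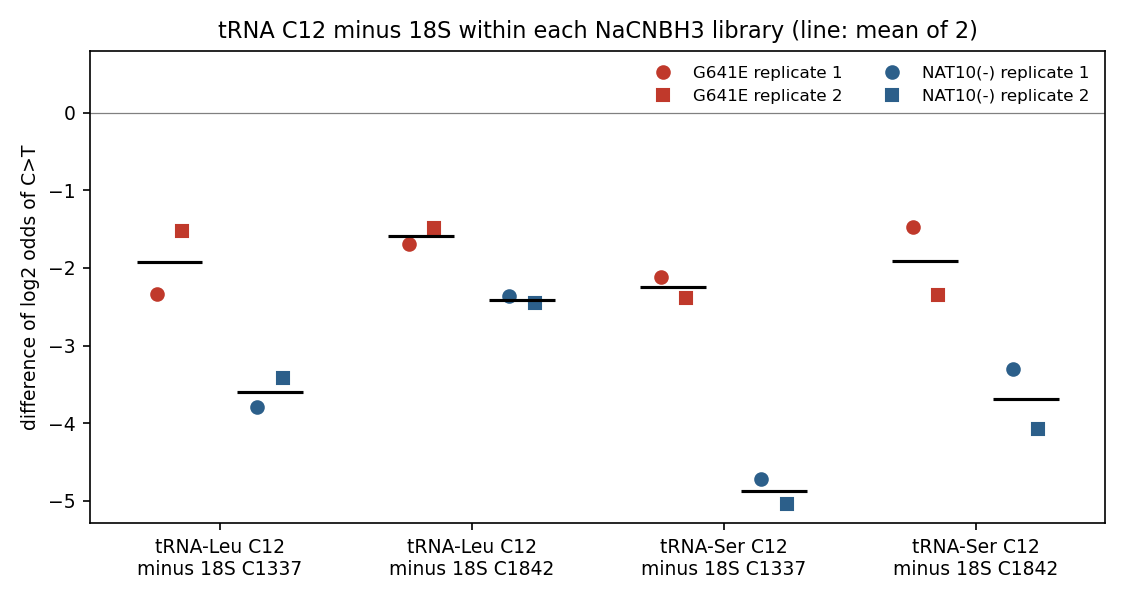
Log2 odds of C>T at tRNA C12 minus that at an 18S site, within each NaCNBH3 library; circles are replicate 1, squares replicate 2 and lines the mean of 2. The G641E points lie above the NAT10(-) points in all 4 differences, by a mean of 2.63 for tRNA-Ser C12 minus 18S C1337.

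Next, C12 was followed gene by gene. Of 54 tRNA-Leu and tRNA-Ser genes with CCG at bases 11 to 13, 44 had 30 or more reads in all 4 NaCNBH3 libraries. Genes with one and the same full sequence were pooled, which gave 26 distinct gene sequences, and 19 of these had 5 or more C>T reads. In 13 of the 19 both G641E shares lay above both NAT10(-) shares, and in 0 both lay below. With loci kept apart by their 31-base window there were 39 windows, 26 with 5 or more C>T reads, and 21 of those had both G641E shares above both NAT10(-) shares, 13 of 16 tRNA-Leu and 8 of 10 tRNA-Ser windows. Of all 4352 mismatch positions tested in NaCNBH3, whatever the RNA, both G641E values were above both NAT10(-) values in 18.1% and below in 16.6%. Those positions passed another filter, a mismatch share of 1% in a compared library. The minimum of 5 C>T reads was summed over both genotypes, and some sequences, such as TRS-GCT5-1 and TRS-GCT2-1, reached it only through G641E. That filter favoured higher G641E values there, so the counts of sequences and windows cannot show a direction.

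The tRNA-Leu genes differed widely in level. Among genes with anticodon UAG, TRL-TAG3-1 had C>T shares of 5.98% and 13.39% in G641E, against 3.07% and 5.04% in NAT10(-), from 874 to 6504 reads. TRL-TAG2-1 was like it, with 7.79% and 13.23% in G641E and 4.17% and 5.50% in NAT10(-). TRL-TAG1-1, of the same anticodon, overlapped, with 2.13% and 4.55% in G641E and 2.33% and 3.70% in NAT10(-). Summed over the isoacceptor, the UAG genes had the highest mock shares of tRNA-Leu, 1.31% and 0.75% in G641E and 0.67% and 0.61% in NAT10(-). TRL-TAG3-1 had mock shares of 1.84% and 1.04% in G641E and 0.77% and 0.71% in NAT10(-), the same order as after NaCNBH3. TRL-TAG2-1 alone was lower in mock, at 0.13% and 0.42% in G641E and 0.23% and 0.35% in NAT10(-).

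The CAG genes were lower. The 7 genes with the sequence of TRL-CAG1-1 together gave 3.53% and 4.98% in G641E, against 0.89% and 1.06% in NAT10(-). TRL-CAG2-2 and its identical copy gave 1.07% and 1.40% in G641E, against 0.34% and 0.64% in NAT10(-). A value at one locus could not be taken as that of an RNA species, because loci of one sequence differed. TRL-CAG1-1 to TRL-CAG1-5, alike also in the bases just before the gene, had 7.53% and 11.45% in G641E and 1.75% and 1.74% in NAT10(-). TRL-CAG1-6 had 3.77% and 5.44% in G641E and 0.26% and 0.73% in NAT10(-). Within a library TRL-CAG1-1 to TRL-CAG1-5 had equal C>T counts, so the same reads appear to have entered once per locus. The 45 C>T reads of 598 pooled over them in G641E NaCNBH3 replicate 1 are therefore not independent, and they also enter the pooled value of the 7 genes. Other sums over tRNA gene copies may hold repeated reads too.

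The AAG genes had the most reads and nearly no C>T. The 4 genes with the sequence of TRL-AAG2-4 gave 0.23% and 0.51% in G641E, from 7968 and 2934 reads, against 0.10% and 0.14% in NAT10(-), from 20953 and 23410 reads. The order of the genotypes was the one seen at the other isoacceptors, at a level more than 20 times lower than TRL-TAG3-1 in each library. In their first 30 bases the printed sequences differ from TRL-AAG2-4 to TRL-TAG3-1 only by C16T, and from TRL-AAG2-4 to TRL-TAG2-1 only by C6T, counted from 1 at the 5′ end. TRL-CAA1-2 had 0.33% and 0.44% in G641E and 0.08% and 0.22% in NAT10(-), TRL-TAA1-1 had 1.42% and 5.33% in G641E and 0.54% and 0.70% in NAT10(-), and TRL-CAA1-1 and TRL-TAA3-1 overlapped. TRL-AAG1-1 and its 2 copies had 0 C>T reads in G641E and 0 and 5 in NAT10(-).

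Of the tRNA-Ser genes, those with anticodon GCU and 5 or more C>T reads all had both G641E shares above both NAT10(-) shares. TRS-GCT3-1 had 1.64% and 1.81% in G641E, against 0.50% and 0.35% in NAT10(-). TRS-GCT4-3 and its 2 copies had 3.63% and 1.99% in G641E, against 0.56% and 0.71% in NAT10(-). TRS-GCT5-1 had 6.03% and 4.44% in G641E, from 116 and 45 reads, against 0.32% and 0% in NAT10(-), and TRS-GCT2-1 had 7.25% and 2.86% in G641E, from 69 and 35 reads, against 0.48% and 0.44% in NAT10(-). TRS-GCT5-1 and TRS-GCT2-1 reached 5 C>T reads only through G641E.

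Genes of the other serine anticodons were split. TRS-AGA4-1 had C>T shares of 21.74% and 12.90% in G641E, against 2.42% and 3.29% in NAT10(-), from 62 to 152 reads. In mock it had 1.92% and 0% in G641E and 1.40% and 0% in NAT10(-). The 5 genes of TRS-AGA2-1, whose first 30 bases differ from it to TRS-AGA4-1 only by C25T, had 0.22% and 0.16% in G641E and 0 C>T reads in NAT10(-). TRS-CGA3-1 had 3.68% and 6.27% in G641E, against 1.61% and 1.35% in NAT10(-), whereas TRS-CGA4-1 had 4 C>T reads in all. In the printed bases those 2 differ, from TRS-CGA4-1 to TRS-CGA3-1, by T2C, C3T, A4G, C5T, G7A and C25T. TRS-TGA1-1 had 0.89% and 1.06% in G641E, against 0.73% and 0.96% in NAT10(-), which overlapped, as did TRS-CGA1-1. TRS-AGA2-2, TRS-AGA2-4 and TRS-AGA2-5 had 0 C>T reads in all 4 libraries.

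**Figure D3:**
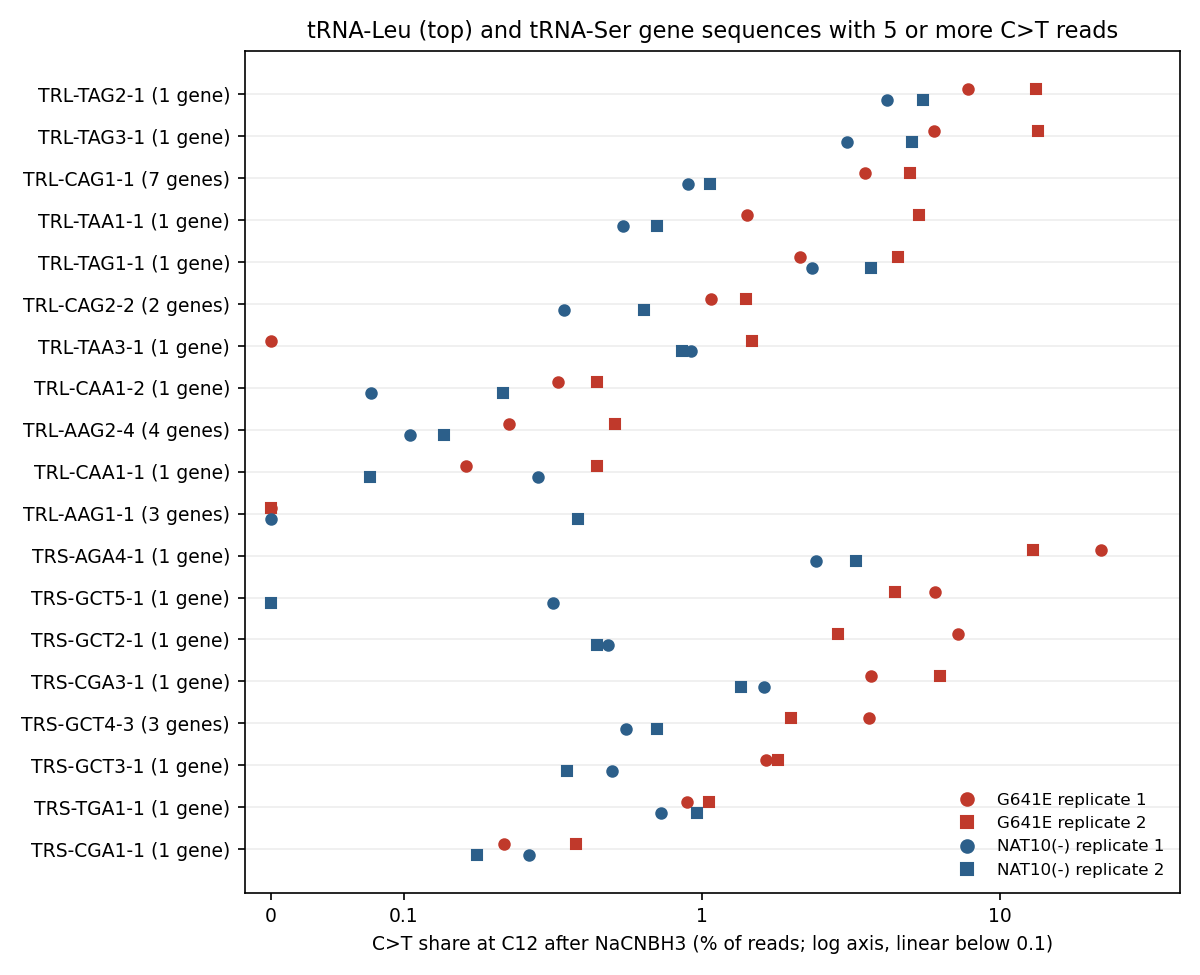
C>T share at C12 in the NaCNBH3 libraries for the 19 tRNA-Leu and tRNA-Ser gene sequences with 5 or more C>T reads (log axis, linear below 0.1%); red is G641E and blue NAT10(-), circles replicate 1 and squares replicate 2. In 13 of the 19 both red points lie to the right of both blue points, and in 0 to the left.

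The reads behind these shares differed between the genotypes. tRNA-Leu C12 had 17731 and 9147 reads in G641E NaCNBH3, against 40811 and 48089 in NAT10(-) NaCNBH3, and tRNA-Ser C12 had the counts given above. Whether the lower number of tRNA reads bore on the C>T share was not tested.

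To look beyond these sites, every cytosine in a CCG that NaCNBH3 raised over mock in Wildtype or NAT10-WT cells was listed, 72 positions in all. It held 26 positions of 18S copies, 27 of tRNA, 11 of pre-rRNA spacer, 6 of C/D snoRNA, and 1 each of snRNA and H/ACA snoRNA. Of the 38 that reached a mismatch share of 1% in at least one compared library and so were tested here, 9 were higher in G641E and 11 lower, as called by Fisher's exact test in each replicate. All positions tested gave 2.94% higher and 1.93% lower. Calls by RNA class were 0 higher and 10 lower of 17 positions in 18S copies, with a median log2 odds ratio of −0.71. In tRNA 8 were higher and 1 lower of 20, with a median of 2.14. The median over all positions tested was 0.01. The 18S positions were copies of C1337 and C1842, and merged they were 2 sites, 0 higher and 1 lower. Some tRNA positions, such as TRS-GCT3-1 and TRL-CAG1-6, reached 1% only in G641E. The filter thus favoured higher G641E values there, and the tRNA count and median cannot show a direction. With identical copies merged, the list had 11 higher and 2 lower of 19, against 101 higher and 67 lower of all 1981 merged positions. The tRNA position lower in G641E was in TRE-CTC1-2, at 1.47% and 1.37% in G641E and 2.32% and 2.52% in NAT10(-).

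RNVU1-7, a variant of the U1 spliceosomal RNA, held the tested cytosine outside rRNA and tRNA. Its window lies at chr1:148038828-148038858 on the minus strand and is shown with the CCG in capitals, for comparison with those above.
RNVU1-7: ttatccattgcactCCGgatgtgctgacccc
Its C>T share was 2.21% and 2.22% in G641E NaCNBH3, against 1.49% and 0.86% in NAT10(-) NaCNBH3, and Fisher's exact test called it higher in G641E in each replicate. The call was tied to this locus: 1 of 69 snRNA positions was called, and 0 of 28 with identical copies merged over all positions. The merged list above pooled listed positions only. The listed cytosines in SNORD46, SNORD126, SNORD87, SNORD18A, SNORD18B, SNORD18C and SNORA79B, which guide RNA modification, stayed at or below 0.56% in all 4 libraries and were not tested, and so did the 11 spacer positions, at base 2278 of the 5′ and base 70 of the 3′ external transcribed spacer. SNORD87 had 0.29% and 0.35% in G641E, against 0.14% and 0.09% in NAT10(-). SNORD126 had 0.56% and 0.38% in G641E, against 0% and 0.15% in NAT10(-), from 265 to 658 reads. SNORD46, with 0.08% and 0.09% in G641E and 0.11% and 0.17% in NAT10(-), and SNORD18B, with 0% in G641E and 0.42% and 0.16% in NAT10(-), had both G641E values below, and the other snoRNAs overlapped. All these snoRNA shares rest on few C>T reads per library and cannot show a direction.

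The NAT10-independent sites served to ask whether mismatches at other modified bases differed between the genotypes. In NaCNBH3 the reference sites overlapped between the genotypes: mitochondrial tRNA-Met C34 had a NaCNBH3 C>T share of 52.4% and 51.0% in G641E, against 52.1% and 52.0% in NAT10(-), with a log2 odds difference of −0.02 and a standard error of 0.29. 18S U1248, the hypermodified m1acp3Ψ, had 19.5% and 20.1% mismatches in G641E and 20.3% and 19.5% in NAT10(-), and 28S A1322, a 1-methyladenosine, 94.1% and 92.7% in G641E and 93.3% and 92.9% in NAT10(-). In mock A1322 had 93.3% and 92.9% in G641E, against 92.5% and 92.7% in NAT10(-), without overlap, with a log2 odds difference of 0.11 and a standard error of 0.18 (limma, adjusted p = 0.810), and the other 2 overlapped.

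In cytosolic tRNA the mismatch shares leaned upward in G641E. Over the 60 sites of the panel (NAT10 sites included) 21 had both G641E values above both NAT10(-) values and 8 below in NaCNBH3, with a median log2 difference of 0.19, and 29 were above and 2 below in mock, with a median of 0.25. None passed in either fraction (limma, 0 adjusted p under 0.05, with 3 in NaCNBH3 and 7 in mock at an unadjusted p under 0.05). The lean was clearest at A58, where in mock 13 of 20 tRNA families had both G641E values above both NAT10(-) values and 0 below, with a median of 0.38, and in NaCNBH3 9 and 0, with a median of 0.30. At I34 3 of 8 families were above in each fraction and 0 below. At G26 6 of 12 were above and 1 below in mock, and 4 and 3 in NaCNBH3. The 8 G9 families had 3 above and 0 below in mock, and 2 and 1 in NaCNBH3. The 5 C32 families had 1 above and 1 below in mock, with a median of −0.25, and 1 and 3 in NaCNBH3, with a median of −0.49. Over all mismatch positions, both G641E values lay above both NAT10(-) values at 19% in mock and 18.1% in NaCNBH3 and below at 14.2% and 16.6%, so the G9 and G26 counts in NaCNBH3 were not far from the share over all positions.

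The tRNA-Phe A58 mismatch share was 81.6% and 78.8% in G641E mock, against 53.1% and 57.6% in NAT10(-) mock. After NaCNBH3 it was 80.2% and 78.3% in G641E, against 57.8% and 58.7% in NAT10(-). This was the widest gap at A58, with a mock log2 odds difference of 1.71, a standard error of 0.71 and limma adjusted p = 0.334. The tRNA-Ala A58 share was 42.6% and 39.8% in G641E mock, against 30.9% and 28.4% in NAT10(-) mock, with a difference of 0.74 and a standard error of 0.21 (limma, adjusted p = 0.310). tRNA-Met A58 had 82.5% and 79.0% in G641E mock, against 69.3% and 67.2% in NAT10(-) mock.

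The same order was seen at other bases. tRNA-Met G26 had 64.4% and 74.6% in G641E mock, against 45.2% and 51.0% in NAT10(-) mock. tRNA-Val I34 had 82.7% and 85.8% in G641E mock, against 74.3% and 76.2% in NAT10(-) mock. tRNA-Ile G9, from 1 gene copy, had 2.09% and 1.49% in G641E NaCNBH3, against 0.485% and 0.594% in NAT10(-) NaCNBH3. It had a log2 odds difference of 1.75 and a standard error of 0.45 (limma, adjusted p = 0.155), a size like that of tRNA-Ser C12. Against this order, tRNA-Thr C32 had 48.0% and 48.8% in G641E NaCNBH3, against 62.6% and 51.1% in NAT10(-), and tRNA-Leu A58 overlapped, with 89.0% and 85.8% in G641E mock and 90.2% and 87.9% in NAT10(-) mock.

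**Figure D4:**
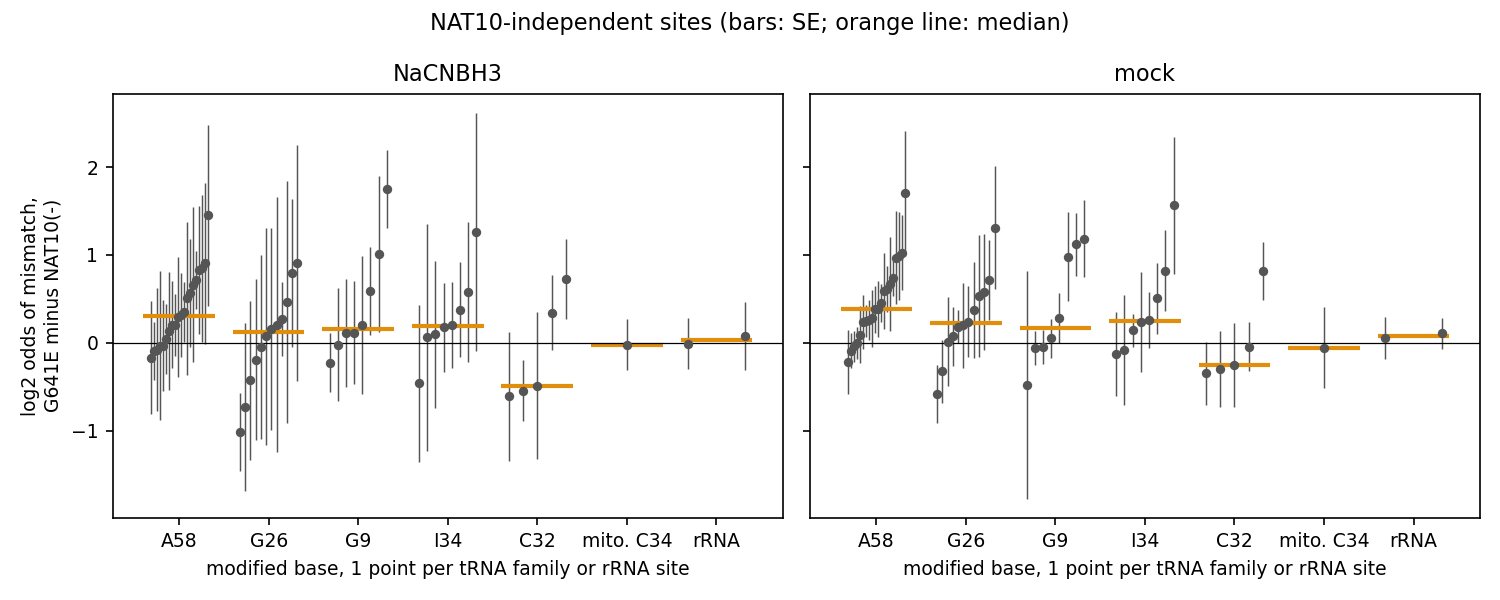
Log2 odds of a mismatch, G641E minus NAT10(-), at NAT10-independent sites in NaCNBH3 (left) and mock (right), 1 point per tRNA family or rRNA site, sorted within each base; bars are the standard error and orange lines the median. The A58 points have medians of 0.30 in NaCNBH3 and 0.38 in mock, while mitochondrial C34 and the rRNA sites lie near 0.

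Within each genotype, NaCNBH3 raised 11 and lowered 1 of the 60 sites in G641E (Fisher's exact test in each replicate), and raised 29 and lowered 0 in NAT10(-). These counts depended on the summing of gene copies: with 1 copy per site, 7 were raised and 1 lowered in G641E, and 8 raised and 0 lowered in NAT10(-). The site lowered in G641E was tRNA-Ser C32.

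Without a choice of sites, 4352 positions in NaCNBH3 and 4081 in mock had a mismatch share of 1% or more in a compared library and at least 30 reads in all 4. By Fisher's exact test, passed in both replicates the same way, 128 positions were higher in G641E NaCNBH3 (2.94%) and 84 lower (1.93%). In mock 153 were higher (3.75%) and 91 lower (2.23%). Fisher's test compares the reads of single libraries and does not include the spread between them. limma on the log odds, which does, called 0 positions in NaCNBH3 (0%) and 0 in mock (0%), with 370 and 335 at an unadjusted p under 0.05. Both G641E values lay above both NAT10(-) values at 18.1% of positions in NaCNBH3 and 19% in mock, and below at 16.6% in NaCNBH3 and 14.2% in mock.

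tRNA gave the following Fisher calls. In NaCNBH3 84 of 1267 tRNA positions were higher in G641E and 27 lower, and in mock 87 of 1214 were higher and 15 lower. 28S rRNA gave 5 higher and 23 lower of 598 in NaCNBH3, and 19 and 32 of 561 in mock. 18S gave 1 higher and 10 lower of 130 in NaCNBH3, all 10 of them copies of C1337 or C1842, and 8 higher and 0 lower of 99 in mock. With identical copies merged, all positions gave 101 higher and 67 lower of 1981 in NaCNBH3, and 102 higher and 55 lower of 1845 in mock. Of these, 27 of 115 tRNA base 58 positions were higher and 4 lower in NaCNBH3, and 31 of 116 higher and 1 lower in mock. Base 34 gave 6 of 31 higher in NaCNBH3 and 7 of 30 in mock, with 0 lower in both. Base 12 gave 5 of 15 higher and 0 lower in NaCNBH3, and in mock neither of the 2 base 12 positions that could be tested was called. Some base 12 positions reached the 1% filter only in G641E, so that NaCNBH3 count cannot show a direction.

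The largest single positions lay mostly outside known modifications of these lists. In NaCNBH3 the neighbouring bases 3314 and 3315 of the 5′ external transcribed spacer had G>A of 1.59% and 1.04% and C>G of 1.54% and 1.14% in G641E, against 0% in both NAT10(-) libraries for both. In RNY1, a Y RNA, C>G was 8.16% in G641E replicate 1 and 0.83% in replicate 2, against 0.323% and 0.219% in NAT10(-), so its size rested on 1 library. Base 58 of TRNAV-CAC, a tRNA-Val gene at chr1:145157214, read A>G in 65.3% and 60.4% of G641E mock reads, against 17.1% and 20.2% in NAT10(-) mock.

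Among positions lower in G641E, TRY-GTA2-1 at chr2:27050805 had G>C of 10.1% and 5.51% in G641E NaCNBH3, against 37.8% and 36.0% in NAT10(-) NaCNBH3, and 8.30% and 6.58% in G641E mock, against 34.7% and 29.6% in NAT10(-) mock. The mRNA of HNRNPA1, an RNA-binding protein, had G>C of 4.17% and 5.46% in G641E NaCNBH3, against 34.6% and 28.5% in NAT10(-) NaCNBH3, from 48 to 130 reads. Both positions kept their order in all 8 libraries and in both fractions. Base 855 of 28S had G>A of 0.162% and 0.132% in G641E NaCNBH3, against 1.04% and 0.931% in NAT10(-) NaCNBH3. None of these passed limma after adjustment.

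Relative depth was then compared by RNA class, as the share of base calls at positions with 30 or more reads in all 8 libraries. tRNA took 2.69% and 1.56% of base calls in G641E NaCNBH3, against 4.62% and 4.46% in NAT10(-) NaCNBH3. In mock it took 2.89% and 1.34% in G641E, against 5.11% and 3.31% in NAT10(-). Both G641E libraries were below both NAT10(-) libraries in each fraction. The pre-rRNA spacer, which is removed as rRNA matures, took 10.8% and 8.26% in G641E NaCNBH3 and 15.2% and 15.8% in NAT10(-) NaCNBH3, and 13.3% and 8.96% in G641E mock and 17.6% and 15.1% in NAT10(-) mock. 18S was higher in G641E in each fraction, at 19.6% and 21.6% in G641E NaCNBH3 against 17.97% and 17.2% in NAT10(-) NaCNBH3, and at 18.5% and 21.8% in G641E mock against 16.9% and 18.2% in NAT10(-) mock. The rRNA depth was near its ceiling and the shares of a library sum to a whole, so less of one class and more of another cannot be told apart.

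**Figure D5:**
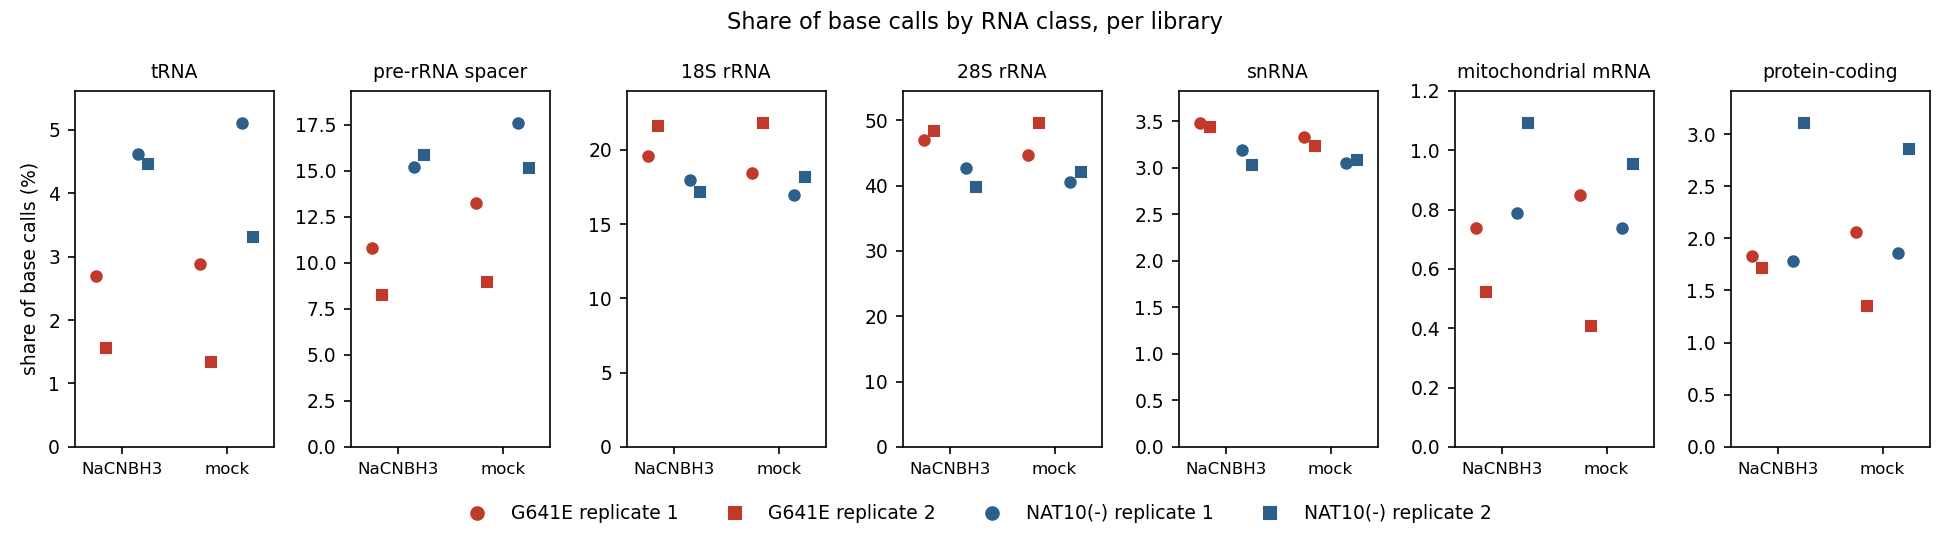
Share of base calls (percent, linear axes from 0 with their own range) by RNA class in each NaCNBH3 and mock library; circles are replicate 1 and squares replicate 2, red G641E and blue NAT10(-). In the tRNA panel all G641E points (1.34% to 2.89%) lie below all NAT10(-) points (3.31% to 5.11%).

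Per gene, depth was set against the median protein-coding gene of the same library, over 1078 genes. The 313 tRNA genes had a median log2 difference, G641E minus NAT10(-), of −0.79 in mock, with 299 lower, and −0.96 in NaCNBH3, with 301 lower. The median over all 1078 genes was 0.00 in mock and −0.04 in NaCNBH3, with 49.8% and 54.0% of them lower. In bulk RNA, fewer molecules of a class and a lower yield of it in the library cannot be told apart. The 2 replicate pairs gave tRNA medians of −1.26 and −0.26 in mock and −1.04 and −0.81 in NaCNBH3, so pair 1 had most of the mock difference. limma without a block called 0 genes in mock (0%, with 15 at an unadjusted p under 0.05) and 0 in NaCNBH3 (0%, with 72). With the replicate number as a block, 14 genes were lower (1.30%) and 2 higher (0.186%) in mock, 12 of the 14 being tRNA genes. In NaCNBH3 220 were lower (20.4%) and 28 higher (2.60%), of which 194 lower and 1 higher were tRNA genes. The block fit left 1 residual degree of freedom per gene.

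The lower tRNA depth was not tied to one end of the molecule. The median was −0.72 before base 26, −0.78 from base 26 to A58 and −0.83 after A58 in mock, and −0.92, −0.96 and −0.96 in NaCNBH3. Scaled to total base calls instead, the tRNA median was −1.31 in mock and −1.44 in NaCNBH3, against −0.52 for all genes in both. Over positions listed in any of the 8 libraries, with an unlisted position counted as 0, it turned to 0.04 in mock and 0.99 in NaCNBH3, against 0.70 in mock and 1.80 in NaCNBH3 for the same 1078 genes. Within those 1078 genes the tRNA median minus that of all genes was −0.66 in mock and −0.81 in NaCNBH3. Over all 2613 genes that this setting admits, the median was 0.26 in mock and 0.96 in NaCNBH3. The median of the tRNA genes in this larger set minus it was −0.30 in mock and −0.08 in NaCNBH3. The gap in NaCNBH3 thus nearly vanished only with the change of gene set.

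TRV-AAC1-1, a tRNA-Val gene, had a mean depth of 596 and 327 reads in G641E NaCNBH3, against 1752 and 2907 in NAT10(-) NaCNBH3. Its log2 difference was −1.65 with a standard error of 0.46, and limma adjusted p was 0.702 without and 3.8e-06 with the block. TRI-TAT1-1, a tRNA-Ile gene, had 133 and 83.6 reads in G641E NaCNBH3, against 687 and 789 in NAT10(-) NaCNBH3. TRQ-TTG2-1, of tRNA-Gln, had 101 and 99.5 reads in G641E NaCNBH3, against 424 and 632 in NAT10(-). Mean depths in reads, here and below, are raw and not scaled to the library, so their gaps do not give the relative difference. The exception was TRY-GTA6-1, of tRNA-Tyr, with 80.7 and 49.1 reads in G641E NaCNBH3 and 32.2 and 76.7 in NAT10(-). Relative to the protein-coding median its log2 depth was 0.18 and −0.41 in G641E and −1.14 and −1.18 in NAT10(-), and it was the single tRNA gene called higher with the block.

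Among the other RNAs, 5S rRNA had a log2 difference of 0.80 in mock and 0.93 in NaCNBH3 and passed with the block in NaCNBH3 alone, and 18S had 0.71 in both. All 40 replication-dependent histone mRNAs, made in S phase, were lower in both fractions, with a median of −0.49 in mock and −0.44 in NaCNBH3. Of all genes, 49.8% were lower in mock and 54.0% in NaCNBH3. The block called 0 of the histone mRNAs in mock and 4 of 40 lower in NaCNBH3, a smaller share than the 20.4% over all genes. H1-4 had 194 and 172 reads in G641E NaCNBH3, against 306 and 558 in NAT10(-) NaCNBH3. Mitochondrial tRNA had a median of −0.10 in mock and −0.37 in NaCNBH3 over 22 genes. The 77 ribosomal protein mRNAs had a median of 0.11 in mock and 0.17 in NaCNBH3, 6 glycolytic mRNAs 0.07 and 0.09, and 6 chaperone mRNAs 0.39 and 0.23. The 12 liver secretory mRNAs had 0.40 in mock and 0.47 in NaCNBH3, with APOB low in NAT10(-) replicate 1 alone, at 50.2 reads against 221 in replicate 2. IGF2, a growth factor mRNA, had 106 and 73.5 reads in G641E NaCNBH3, against 258 and 474 in NAT10(-) NaCNBH3 (limma, adjusted p = 0.702 without and 0.00037 with the block).

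Of the small nuclear and nucleolar RNAs, all classes but the C/D snoRNAs in NaCNBH3 had a median above that of the 380 protein-coding genes, which was 0.08 in mock and 0.09 in NaCNBH3. The median was 0.68 in mock and 0.69 in NaCNBH3 for 30 snRNAs, 0.31 and 0.40 for 18 scaRNAs, 0.27 and 0.31 for 102 H/ACA snoRNAs and 0.22 and 0.07 for 164 C/D snoRNAs. As in rRNA, snRNA depth was capped: 58.3% of snRNA positions reached 15000 reads in at least 1 library. The snRNA median therefore cannot be read as a difference in their level. None of these genes passed without the block. With it, in NaCNBH3, 4 snRNAs and 2 scaRNAs were higher and 0 lower, 8 H/ACA snoRNAs were higher and 3 lower, and 4 C/D snoRNAs were higher and 8 lower, against 2.60% of all genes higher and 20.4% lower, and in mock none passed. SNORD13, which guides acetylation of 18S, had 4055 and 5084 reads in G641E NaCNBH3, against 3898 and 7106 in NAT10(-) NaCNBH3. SNORA13, which guides the pseudouridine at 18S U1248, had 1310 and 1318 reads in G641E NaCNBH3, against 1534 and 1797 in NAT10(-) NaCNBH3. Neither passed limma (adjusted p = 0.797 for SNORD13 and 0.874 for SNORA13). These reads are raw depths, whereas limma used depth relative to the protein-coding median, so the raw values cannot show a direction. The 5′ external transcribed spacer had a mean depth of 2562 and 2051 reads in G641E NaCNBH3, against 5002 and 6085 in NAT10(-) NaCNBH3, a log2 difference from the protein-coding median of −0.56 with a standard error of 0.48 (limma, adjusted p = 0.784). The second internal spacer had 5487 and 3666 reads in G641E and 5037 and 5772 in NAT10(-), which overlapped.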

How the data were processed

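Total RNA was partly depleted of rRNA, fragmented, split into NaCNBH3 and mock fractions and reverse-transcribed with Induro enzyme and 2-amino-dATP, as the study's methods describe. The authors trimmed reads with cutadapt 4.2, used UMI-tools and STAR 2.7.9a on GRCh38, and deposited counts of each base per position and strand from SAMtools 1.6 pileups, at positions with 30 or more reads. These counts are not normalized. No per-sample values were left unmapped. The 8 compared libraries held 1287518574 to 1657467620 base calls.

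Groups came from the sample titles. The members and gene lists were chosen with earlier results of these data known. Gene classes came from GENCODE 44 and from tRNA sequences and symbols of a RefSeq gene table, with 421 of 465 tRNA genes placed; the reference base matched the genome at 100% of positions. Two-sided Fisher's exact tests on mismatch and other reads were run in each replicate with Benjamini-Hochberg adjustment and called when adjusted p was under 0.05 in both replicates the same way. limma 3.58.1 (R 4.3.3) was fitted to log2((mismatch + 0.5)/(other + 0.5)), to 60 sites over all 16 libraries of a fraction, and to log2 mean depth per gene over positions covered in all 8 libraries (at least 50 positions, or 20 for small RNAs). Mismatch positions needed a share of 1% and 5 mismatch reads. Tables were handled in Python 3.11.15 with pandas 2.3.3 and scipy 1.17.1. The tests were tried on simulated data.

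Per the labels the replicate number marks a batch, so equal numbers pair samples. Deviations from the group means correlated at 0.34 (NaCNBH3) and 0.27 (mock) over mismatch positions and 0.61 and 0.56 over gene depths. The block is given beside a result where it changed the call. Replicates were independent transductions, so p-values measure the spread between these.

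Named features were the NAT10 and reference sites; C12 of all tRNA-Leu and tRNA-Ser genes covered, the 10 best covered by value; every listed CCG cytosine outside 18S and tRNA; up to 5 positions per fraction and direction with the largest log2 odds ratio; and for depth the 5 highest and lowest genes by smallest p, which did not pass, and up to 4 genes per list. Further named features, such as single C12 genes beyond those 10 and the panel examples, were chosen after their values were seen. Alternatives tried were other read and mismatch minimums, other added counts, merged or single copies, mean copy shares, other depth scalings, the replicate block and leaving out each library.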

Additional observations from a re-analysis of the deposited data

Results flagged for a closer look

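The genotype difference at tRNA-Ser C12 was not the same as at 18S C1337 when the difference itself was tested: it exceeded that at C1337 by 2.63 on the log2 odds scale after NaCNBH3, with both G641E libraries above both NAT10(-) libraries. The same test gave 1.67 for tRNA-Leu C12 against 18S C1337. In the mock fractions of the same RNA the values were 1.21 and 0.98 and did not pass, and the mock-subtracted values of 1.42 and 0.69 did not pass either.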

How the results depend on the processing

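Of the comparisons' main values under alternatives, 93 kept their direction and side of the threshold or stayed within 1.5 times the count, 20 moved, 9 came to pass and 3 no longer passed. For single sites and genes 46 kept theirs, 5 moved, 3 came to pass and 3 turned direction. The tRNA depth median counted as kept when it moved by less than the SD of its replicate pairs, 0.157 in NaCNBH3 and 0.708 in mock. Calls in both replicates by Fisher's exact test numbered 212 in NaCNBH3 and 560 to 679 with a replicate left out, since 1 test then sufficed; in mock 244 became 595 to 613, or 157 with identical copies merged, where fewer positions were tested. limma called 1 position in NaCNBH3 when all 16 libraries shared the spread, an alternative chosen after seeing the data, and 0 otherwise. Depth calls of 0 became 182 in NaCNBH3 when scaled to total base calls, and 248 in NaCNBH3 and 16 in mock with the replicate block. Leaving out 1 library gave 0 in NaCNBH3 and 0 to 129 in mock, the 129 without NAT10(-) replicate 2. The panel's 0 called sites in NaCNBH3 became 3 with single copies, 2 with 5 added to each count and 3 from the 4 libraries alone; in mock it became 2 from the 4 libraries and 1 without K290A. tRNA-Ser C12 was among those with adjusted p of 0.013, 0.041 and 0.012.

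tRNA-Leu C12 minus C1337 ranged from 1.27 to 2.08 with a library left out, and was 2.23 on single copies. tRNA-Leu C12 minus C1842 passed with mean copy shares (1.44, adjusted p = 0.013) and, at 0.82, with the 4 libraries alone (adjusted p = 0.0098) or without K290A (adjusted p = 0.049). tRNA-Ser C12 minus C1842 passed at 1.81 on single copies, at 1.82 with mean copy shares, and at 1.78 with the replicate block, 5 added, the 4 libraries alone or without K290A. tRNA-Ser C12 minus C1337 passed under every alternative run, at 2.47 to 2.79 with a library left out. C1842 turned to −0.12 with mean copy shares; with a library left out it ranged from −0.34 (without G641E replicate 2) and −0.29 (without NAT10(-) replicate 1) to 0.55. Within G641E the 12 sites that responded to NaCNBH3 became 25 to 35 with a replicate left out, and within NAT10(-) the 29 became up to 44, or 8 with single copies. The 20 called CCG positions became 13 merged. The tRNA depth median minus that of all genes was −0.91 in NaCNBH3, −0.08 over positions in any library, where 2613 rather than 1078 genes entered, and −1.18 to −0.49 with a library left out, −0.49 without NAT10(-) replicate 1 and −0.56 without G641E replicate 2. In mock it was −0.80, −0.30 over positions in any library, −0.28 without NAT10(-) replicate 1 and −1.19 without NAT10(-) replicate 2. tRNA-Leu C12 ranged from 0.39 to 1.47 with a library left out. Where none is given, the cause was not tested. The replicate block changed no other call. Depth limited several serine and leucine genes, which had under 100 reads at C12 in G641E.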
